A study of Mus musculus with 8 samples.

Results

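A set of 10 genes of the pericellular matrix metalloproteinase system were followed in mouse brain RNA: Mmp14, its membrane-type paralogs Mmp15, Mmp16, Mmp17 and Mmp24, the secreted protease Mmp2, and the inhibitors Timp2, Timp3, Timp4 and Reck. The set was chosen by the CPM values of Mmp14 (counts of reads per gene after scaling all libraries to one size), which were higher in every Akap11 conditional knockout (cKO) library than in every control library. The cKO against control values of Mmp14 are therefore a description, given with no p. The other 9 genes were listed by family and not by their values, but with earlier results of these data known. All 10 were found among the 57186 genes listed and all 10 were among the 16766 genes with enough reads to be tested. Brain RNA of 4 control libraries was compared with brain RNA of 4 cKO libraries, in which Akap11, an anchoring protein of protein kinase A, is deleted in the cells that express the recombinase. The sources used here do not name the recombinase line, the targeted exons, the genotype of the controls, brain region, strain, age or sex. The labels do not tie libraries to single mice, so a p-value reflects only how these libraries vary, which may be technical.

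Matrix metalloproteinases are zinc endopeptidases that cleave collagens, laminins, cell adhesion molecules and growth factor receptors. The membrane-type enzymes of the set stay anchored to the cell surface, MMP14, MMP15, MMP16 and MMP24 by a transmembrane helix and MMP17 by a lipid (GPI) anchor. A complex of MMP14 with TIMP2 captures the inactive precursor of MMP2 at the surface, where a free MMP14 molecule starts its activation, so TIMP2 is both an inhibitor and a partner. TIMP3 is held in the matrix and also blocks ADAM and ADAMTS proteases, and RECK is a GPI-anchored inhibitor that takes part in WNT7 signalling to brain endothelium.

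The coding stretches of the catalytic zinc-binding site show how alike the proteases are, and so how far reads of one could be mistaken for reads of another. Each line holds the 33 bases that encode the site, 5′ to 3′, from the GENCODE M21 transcripts of GRCm38, and capitals mark the bases that differ from Mmp14.
Mmp14: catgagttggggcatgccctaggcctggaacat
Mmp15: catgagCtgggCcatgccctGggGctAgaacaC
Mmp16: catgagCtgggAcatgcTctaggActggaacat
Mmp17: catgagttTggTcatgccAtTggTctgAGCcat
Mmp24: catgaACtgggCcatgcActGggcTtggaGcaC
Mmp2: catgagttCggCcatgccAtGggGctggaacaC
Even in this conserved site Mmp16 differed from Mmp14 at 4 bases, Mmp15 and Mmp2 at 6, and Mmp17 and Mmp24 at 8. Over whole transcripts the longest run of identical bases that Mmp14 shared was 22 with Mmp15 and with Mmp16, 19 with Mmp17 and 17 with Mmp24 and with Mmp2. Among all pairs of the 10 genes the longest run was 47 bases, between Mmp16 and Timp4. The sources used here do not name the read length. The exons of Mmp14, Mmp15, Mmp16, Mmp17, Mmp2, Timp2 and Reck overlapped no exon of another gene in that annotation. For Mmp24 13.6% of exonic bases were shared with BC029722, for Timp3 21.3% with the synapsin gene Syn3 and for Timp4 1.53% with Syn2. Reads in those shared bases cannot be assigned with certainty, since the strand setting of the counts is not given.

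Reads in genes ranged from 13841218 to 19991942 per library. Akap11 stood at 373, 312, 315 and 291 CPM (scaled by TMM) in control replicates 1 to 4 and at 220, 214, 237 and 240 CPM in cKO replicates 1 to 4. It was lower in all 4 cKO libraries, and its fitted change was -0.50 in log2 (SE 0.069, edgeR adjusted p 0.0103). The call was lost without control replicate 2 (adjusted p 0.0616) or cKO replicate 2 (adjusted p 0.104), where 0 genes passed edgeR's test, and held without each of the other 6 libraries. Genes took 63.8% of the reads listed for cKO replicate 1 and 73.7% to 79.7% elsewhere, and this library stood apart on the first principal component (22.0 against -9.75 to 2.41). Markers of neurons, astrocytes, oligodendrocytes, microglia, endothelium, mural cells, fibroblasts, choroid plexus and ependyma were all detected, all of them cell types of the brain. The summed level of each of the 12 marker lists overlapped between control and cKO libraries, but a sum follows its most abundant markers. Log2 fold changes were positive for 0 of 5 choroid plexus markers (median -0.28) and 1 of 8 endothelial markers (median -0.08). They were positive for 5 of 8 astrocyte markers (median 0.05) and 5 of 6 microglial markers (median 0.07). The microglial marker that was lower in cKO brain was P2ry12, at -0.26 (SE 0.080). None of the choroid plexus, endothelial or microglial markers passed edgeR's adjusted test. In bulk RNA, fewer cells of a type and less RNA per cell cannot be told apart.

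Mmp14 (ENSMUSG00000000957, chromosome 14), the membrane-type collagenase that starts MMP2 activation, was the gene around which the list was made. Its level was 20.4, 20.1, 18.8 and 19.3 CPM in control replicates 1 to 4 and 29.4, 29.8, 25.1 and 27.2 CPM in cKO replicates 1 to 4. The lowest cKO library thus lay above the highest control library, a separation seen in this direction for 1.57% of all genes tested, and the cKO libraries were spread more widely than the controls. The control mean was 19.6 ± 0.709 CPM and the cKO mean 27.9 ± 2.17 CPM (SD, n = 4 each), a ratio of 1.42. The fitted log2 fold change was 0.50 (SE 0.083). It was 0.48 without cKO replicate 1, 0.50 without both libraries numbered 1, and between 0.47 and 0.55 over all 17 alternative fits and subsets of libraries. The counts behind each value ran from 315 to 590 reads per library.

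**Figure D1:**
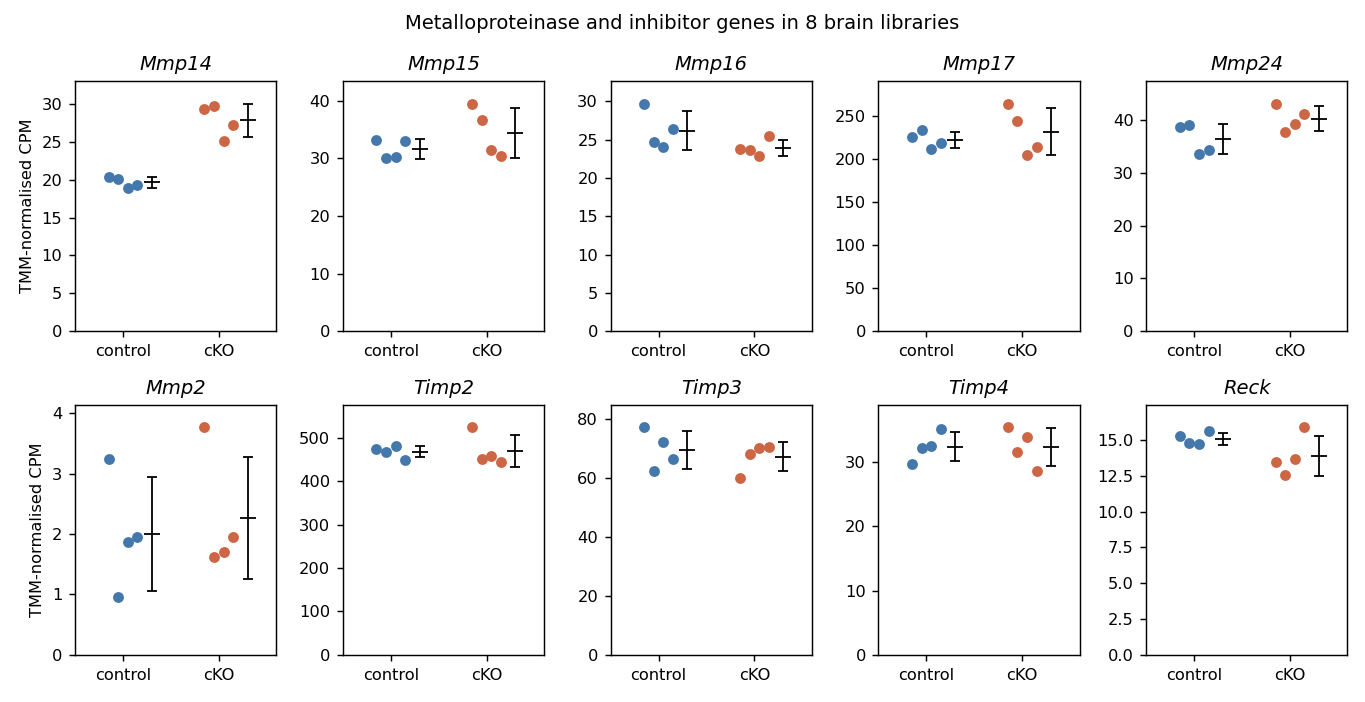
TMM-normalised CPM (vertical axes, from 0) of the 10 genes in 4 control (blue) and 4 cKO (orange) brain libraries, in replicate order 1 to 4 from left to right; black marks are the mean with SD. The groups are separate for Mmp14, with cKO libraries from 25.1 to 29.8 and controls from 18.8 to 20.4 CPM, and overlap in each of the other 9 panels.

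None of the 4 membrane-type paralogs in the set passed the test. Mmp15, a collagenase close to MMP14 in sequence, stood at 33.2, 30.0, 30.2 and 33.0 CPM in control and 39.4, 36.7, 31.4 and 30.3 CPM in cKO libraries. cKO replicates 1 and 2 lay above the controls and the other two among them. The fitted change was 0.12 in log2 (SE 0.087, 95% interval -0.06 to 0.30, edgeR adjusted p 0.889). The change was 0.05 when cKO replicate 1 was left out and 0.17 when cKO replicate 4 was.

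Mmp24, a membrane-type enzyme that neurons express and that cleaves N-cadherin, stood at 38.6, 39.0, 33.6 and 34.3 CPM in control and 43.1, 37.7, 39.1 and 41.1 CPM in cKO libraries. cKO replicates 1, 3 and 4 lay above the controls, the replicate 3 library by a small margin, and replicate 2 lay among them. Its log2 change was 0.15 (SE 0.076, 95% interval -0.01 to 0.30). This did not pass (edgeR adjusted p 0.889), nor did it reach an unadjusted p under 0.05 (0.0696). Without control replicate 1 or cKO replicate 2 the change was 0.18 with edgeR's unadjusted p at 0.0437 and 0.0459 (adjusted p of at least 0.898), and over all fits without 1 library it ran from 0.10 to 0.18.

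Mmp16 went the other way in sign. This transmembrane enzyme stood at 29.7, 24.7, 24.0 and 26.4 CPM in control and 23.7, 23.7, 22.9 and 25.4 CPM in cKO libraries. Replicates 1, 2 and 3 of the cKO group lay below the controls and replicate 4 among them, and control replicate 1 was the highest of the 8. In log2 the change was -0.13 (SE 0.085, 95% interval -0.31 to 0.05, edgeR adjusted p 0.889), and it was -0.06 without control replicate 1. Mmp17, the GPI-anchored member, had the highest counts of the membrane-type genes. Its level was 225, 233, 212 and 219 CPM in control and 264, 244, 205 and 214 CPM in cKO libraries, so that the cKO group reached both above and below the controls. Its change was 0.06 in log2 (SE 0.071, 95% interval -0.09 to 0.21, edgeR adjusted p 0.913).

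Mmp2, the gelatinase whose precursor MMP14 and TIMP2 process, was barely expressed. The libraries held 53, 15, 35 and 39 reads in control replicates 1 to 4 and 52, 32, 34 and 36 reads in cKO replicates 1 to 4. As levels, the controls held 3.25, 0.955, 1.86 and 1.96 CPM and the cKO libraries 3.76, 1.61, 1.71 and 1.96 CPM. Replicate 1 was the highest library in either group, and the rest overlapped. In log2 the change was 0.13 (SE 0.32, edgeR adjusted p 0.959), or -0.19 without cKO replicate 1, -0.09 without control replicate 2 and 0.45 without control replicate 1. Its 95% interval ran from -0.54 to 0.81, which includes both a change as large as that of Mmp14 and one in the opposite direction.

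The inhibitor genes also gave no call. Timp2, the partner of MMP14 in MMP2 activation, was at 474, 467, 480 and 450 CPM in control and 523, 452, 458 and 444 CPM in cKO libraries. Only cKO replicate 1 exceeded the controls, and cKO replicate 4 was the lowest of the 8. The log2 fold change was 0.0035 (SE 0.059), with a 95% interval from -0.12 to 0.13 (edgeR adjusted p 0.995), and turned to -0.06 without cKO replicate 1. With 66512 reads over the 8 libraries this was the most deeply covered of the 10 genes.

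Timp3, the matrix-bound inhibitor, stood at 77.2, 62.2, 72.1 and 66.6 CPM in control and 60.1, 68.3, 70.1 and 70.5 CPM in cKO libraries. The lowest value was that of cKO replicate 1 and the highest that of control replicate 1. Its log2 fold change was -0.05 (SE 0.074, 95% interval -0.20 to 0.11, edgeR adjusted p 0.932), or 0.06 without these 2 libraries. Timp4, the member of the family with the most restricted tissue range, stood at 29.6, 32.2, 32.4 and 35.1 CPM in control and 35.4, 31.6, 33.9 and 28.6 CPM in cKO libraries. The groups covered nearly the same range, and the log2 change was -0.0026 (SE 0.082, 95% interval -0.17 to 0.17, edgeR adjusted p 0.997).

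Reck, the anchored inhibitor, stood at 15.2, 14.8, 14.7 and 15.6 CPM in control and 13.5, 12.6, 13.7 and 15.9 CPM in cKO libraries. Replicates 1 to 3 of the cKO group lay below all controls, and replicate 4 above them. Its fitted log2 change was -0.12 (SE 0.096, 95% interval -0.32 to 0.08, edgeR adjusted p 0.892). It was -0.19 without cKO replicate 4 and -0.07 without cKO replicate 2.

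Counted together, 0 of the 9 genes other than Mmp14 passed edgeR's test at an adjusted p of 0.05, where 0.0239% of all genes tested passed. With all 8 libraries an unadjusted p under 0.05 was reached by 0 of the 9, against 4.78% of all genes tested, and DESeq2 and limma voom called 0 of the 9. For 0 of the 9 did the 4 cKO libraries lie wholly on one side of the controls, as they did for 2.96% of all genes. The sign of the log2 fold change was positive in 5 of the 9. A missed threshold does not show that a gene was unchanged, and the intervals give the sizes these libraries allow. The upper 95% limits of the fold, cKO over control, were 1.23 for Mmp15, 1.03 for Mmp16, 1.15 for Mmp17, 1.23 for Mmp24, 1.09 for Timp2, 1.08 for Timp3, 1.12 for Timp4 and 1.06 for Reck. For Mmp2 the limit was 1.76.

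**Figure D2:**
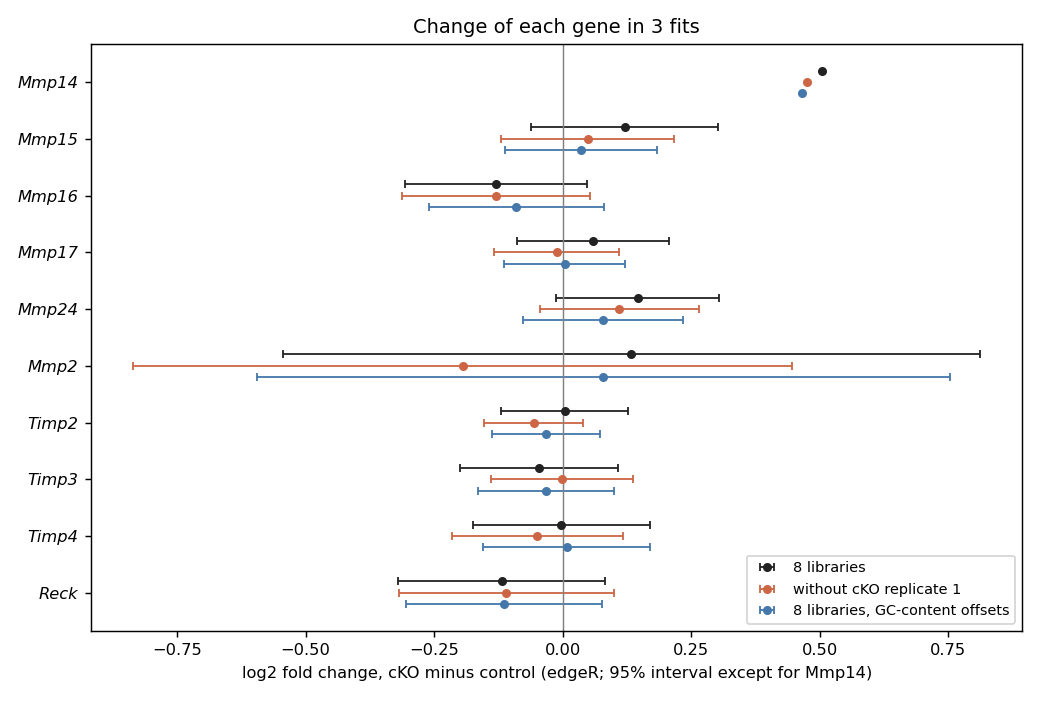
Log2 fold change (cKO minus control, horizontal axis) of each gene with its 95% interval from edgeR, fitted to all 8 libraries (black), without cKO replicate 1 (orange), or with offsets for GC content (blue). Mmp14, drawn with no interval because its values chose the set, stays between 0.47 and 0.50, the intervals of the other 9 genes include 0 in all 3 fits, and the interval of Mmp2 is the widest.

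The ratio of Mmp14 reads to reads of another gene in the same library does not depend on how libraries are scaled. As Mmp14 chose the list, these ratios are a description. Per 100 reads of Timp2, Mmp14 had 4.30, 4.29, 3.93 and 4.29 reads in the controls and 5.61, 6.59, 5.48 and 6.14 reads in the cKO libraries. All cKO libraries were thus above all controls in Mmp14 reads relative to those of Timp2. Against Reck the mean ratio was 1.30 ± 0.0555 (SD, n = 4) in control and 2.03 ± 0.303 (SD, n = 4) in cKO brain. Against Timp3 it was 0.284 ± 0.0283 and 0.417 ± 0.0575, and against Timp4 0.610 ± 0.0601 and 0.866 ± 0.100.

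Against the paralogs, the mean ratio of Mmp14 reads went from 0.622 ± 0.0352 in control to 0.814 ± 0.0633 in cKO brain for Mmp15 (SD, n = 4 per group). It went from 0.753 ± 0.0560 to 1.16 ± 0.0964 for Mmp16, from 0.0884 ± 0.00189 to 0.121 ± 0.00682 for Mmp17 and from 0.541 ± 0.0239 to 0.694 ± 0.0657 for Mmp24. Mmp14 thus had fewer reads than Mmp16 in each control library and more in each cKO library. With Mmp2 as the denominator the groups overlapped (6.28 to 21.0 in control, 7.81 to 18.4 in cKO libraries). The cKO libraries lay above all controls for 8 of the 9 ratios, as they did for 65.9% of the 16765 other genes tested when each was used as the denominator.

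**Figure D3:**
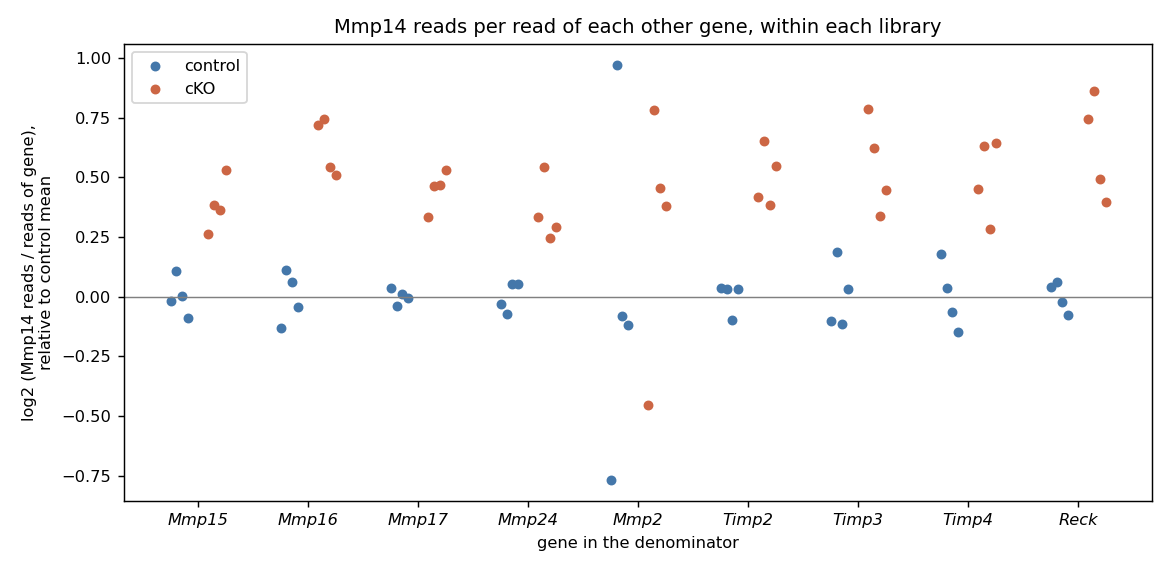
Log2 ratio of Mmp14 reads to reads of each of the other 9 genes in the same library, relative to the control mean (vertical axis), for 4 control (blue) and 4 cKO (orange) libraries. The cKO points lie above all control points for each denominator except Mmp2, which had 15 to 53 reads per library and a wide scatter.

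Levels of different genes were compared per kilobase of exon (RPKM, from TMM-normalised CPM and the summed exon length in GENCODE M21). In control brain Timp2 was highest at 120 ± 3.39 RPKM (SD, n = 4), followed by Mmp17 at 33.6 ± 1.39 RPKM. Timp3 at 8.54 ± 0.798 and Mmp24 at 7.77 ± 0.603 RPKM overlapped, as did Mmp15 at 5.86 ± 0.320 and Timp4 at 5.49 ± 0.381 RPKM. Mmp14 (3.30 ± 0.119), Reck (3.16 ± 0.0895) and Mmp16 (3.02 ± 0.293 RPKM) came next, each overlapping the following one, and Mmp2 was lowest at 0.595 ± 0.280 RPKM.

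In cKO brain Mmp14 stood at 4.68 ± 0.363 RPKM (SD, n = 4). It kept the seventh place, but its libraries (4.21 to 4.99 RPKM) no longer overlapped those of Reck (2.63 to 3.32 RPKM) and reached into the range of Timp4, which began at 4.86 RPKM. Mmp24 at 8.60 ± 0.495 and Timp3 at 8.26 ± 0.596 RPKM exchanged places within their spread. Of the summed RPKM of the set's 5 membrane-type genes, Mmp14 made up 6.16% ± 0.0696 in control and 8.15% ± 0.342 in cKO brain. Mmp17 made up most of that sum, at 62.7% ± 0.881 and 60.9% ± 1.50, then Mmp24 (14.5% ± 0.573 and 15.0% ± 1.31), Mmp15 (11.0% ± 0.651 and 11.1% ± 0.492) and Mmp16 (5.65% ± 0.447 and 4.84% ± 0.510).

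**Figure D4:**
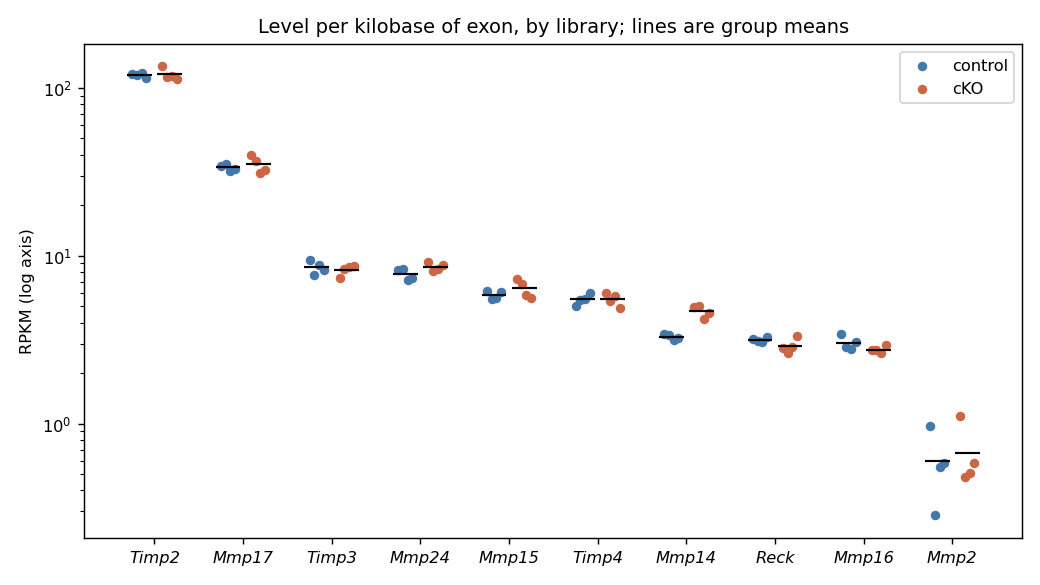
RPKM (log axis) of the 10 genes in each control (blue) and cKO (orange) library, ordered by the control mean; horizontal lines are group means. Timp2 is highest at about 120 and Mmp2 lowest at 0.595 RPKM in control brain, and only the points of Mmp14 separate by group.

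The GC content of transcripts moved with the fold changes of these libraries, and its part in the results was not tested beyond the fits given here. Over 10331 genes with a mean of at least 10 CPM, Spearman's rho between GC content and log2 fold change was 0.494, or 0.192 once cKO replicate 1 was left out and 0.0603 with per-library offsets for GC content (a description across genes, which are not independent). cKO replicate 1 was the highest of the 8 libraries for 6 of the 10 genes, Mmp15, Mmp17, Mmp24, Mmp2, Timp2 and Timp4, while for Mmp14 it came second (29.4 CPM) after cKO replicate 2 (29.8 CPM). Spearman's rho between GC content and a gene's deviation from its mean over the 8 libraries was 0.664 in cKO replicate 1, 0.366 in cKO replicate 2 and between -0.434 and -0.00725 in the other 6, so the 2 highest libraries for Mmp14 also had the 2 highest values of this measure. The longest transcripts of Mmp15 (59.6% GC), Mmp24 (58.1%), Mmp17 (55.9%), Mmp2 (55.3%), Mmp14 (54.3%) and Timp2 (53.7%) were richer in GC than those of Reck (48.4%), Timp4 (47.7%), Timp3 (46.8%) and Mmp16 (42.2%). The median log2 fold change of genes within 1 percentage point of GC was 0.08 for Mmp15, 0.07 for Mmp24, 0.04 for Mmp14 and -0.05 for Mmp16. With GC-content offsets the log2 fold change was 0.47 for Mmp14 (SE 0.078), 0.04 for Mmp15, 0.08 for Mmp24, 0.0035 for Mmp17 and -0.09 for Mmp16. Without cKO replicate 1 that of Mmp17 turned to -0.01.

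Around the 10 genes, 119 further genes of the pathway were listed from general knowledge in 8 groups, and 104 were tested. None passed the adjusted threshold of edgeR, DESeq2 or limma voom. An unadjusted edgeR p under 0.05 was reached by 9 of the 104 (8.65%), 8 higher and 1 lower in cKO brain, where 4.78% of all genes reached it (2.87% higher and 1.91% lower). The count ran from 4, without control replicate 3, to 12 over the fits that leave out 1 library. The 3 genes with the lowest p per group are given here, each with an edgeR adjusted p of at least 0.889.

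Other metalloproteinases were scarce, and 6 of 17 were tested; the 11 others had at most 21 reads over the 8 libraries together. None of the 6 passed, and their median log2 fold change was 0.29 beside 0.0034 for all genes tested. Leaving out control replicate 1 gave a median of 0.17, leaving out cKO replicate 3 gave 0.18, leaving out both libraries numbered 1 gave 0.09, and it was 0.09 for the 4 genes left by a filter of at least 1 CPM in 4 libraries. Mmp23, a type II membrane protease, had control and cKO means of 1.61 ± 0.403 and 2.22 ± 0.650 CPM (SD, n = 4), with a log2 fold change of 0.47 (SE 0.26). Mmp11, a furin-activated secreted protease, had 0.27 (SE 0.20) and the GPI-anchored Mmp25 had 0.36 (SE 0.40).

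Of 6 other inhibitors, 4 were tested and none passed (median -0.02). Spock3 and Spock1, proteoglycans of the testican family that bind matrix proteases, had -0.14 (SE 0.072) and -0.04 (SE 0.055), and the broad protease trap A2m had 0.01 (SE 0.14). Timp1, the inhibitor induced in reactive glia, had 61 reads in all and was not tested. Among 17 convertases, surface partners and trafficking factors, 16 were tested, with no call and a median of -0.02. The convertase gene Pcsk6 had -0.18 (SE 0.090), the hyaluronan receptor gene Cd44 had -0.29 (SE 0.15) and the integrin gene Itgav had -0.15 (SE 0.089). The groups did not overlap for 5 of the 104 pathway genes (4.81%, beside 2.96% of all genes tested), Adam8, Mmp11 and Col4a2 being higher and Cd44 and Lrp6 lower in all 4 cKO libraries.

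The 20 reported substrates of MMP14 were all tested and had a median of 0.00025, with 10 positive, 3 at an unadjusted p under 0.05 and none past the adjusted test. The Notch ligand gene Dll1 had 0.36 (SE 0.14), the fibrillar collagen gene Col1a1 had 0.25 (SE 0.11) and Agrn, the basement membrane proteoglycan agrin, had 0.15 (SE 0.065). Without cKO replicate 1 the 3 became 0. The 14 basement membrane genes had a median of 0.08 and 2 members at an unadjusted p under 0.05, Agrn and the type IV collagen gene Col4a2 (0.14, SE 0.064), while Lama5 had 0.13 (SE 0.099). With GC-content offsets that count was 0 and the median 0.03, as the median also was without cKO replicate 1.

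Among 30 genes of the ADAM and ADAMTS families, many of them for proteases that TIMP3 inhibits, 29 were tested, with no call and a median of 0.05. Adam15 had 0.25 (SE 0.081), Adam8, a protease of myeloid cells, had 0.47 (SE 0.18) and Adamts16 had 0.33 (SE 0.16). The 9 lecticans and linkers of the brain matrix had a median of 0.09, which was 0.0066 without control replicate 4, 0.02 when cKO replicate 1 was left out, and 0.03 with the offsets for GC content. Among them were Bcan (brevican) at 0.19 (SE 0.066), Hapln2 at 0.18 (SE 0.097) and Tnr (tenascin R) at -0.12 (SE 0.076). Of the genes listed for WNT7 signalling, in whose receptor complex RECK takes part, all 10 were tested with a median of 0.0065. The receptor gene Fzd4 had 0.29 (SE 0.11), the co-receptor gene Lrp6 had -0.14 (SE 0.059) and Apcdd1 had -0.08 (SE 0.080).

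**Figure D5:**
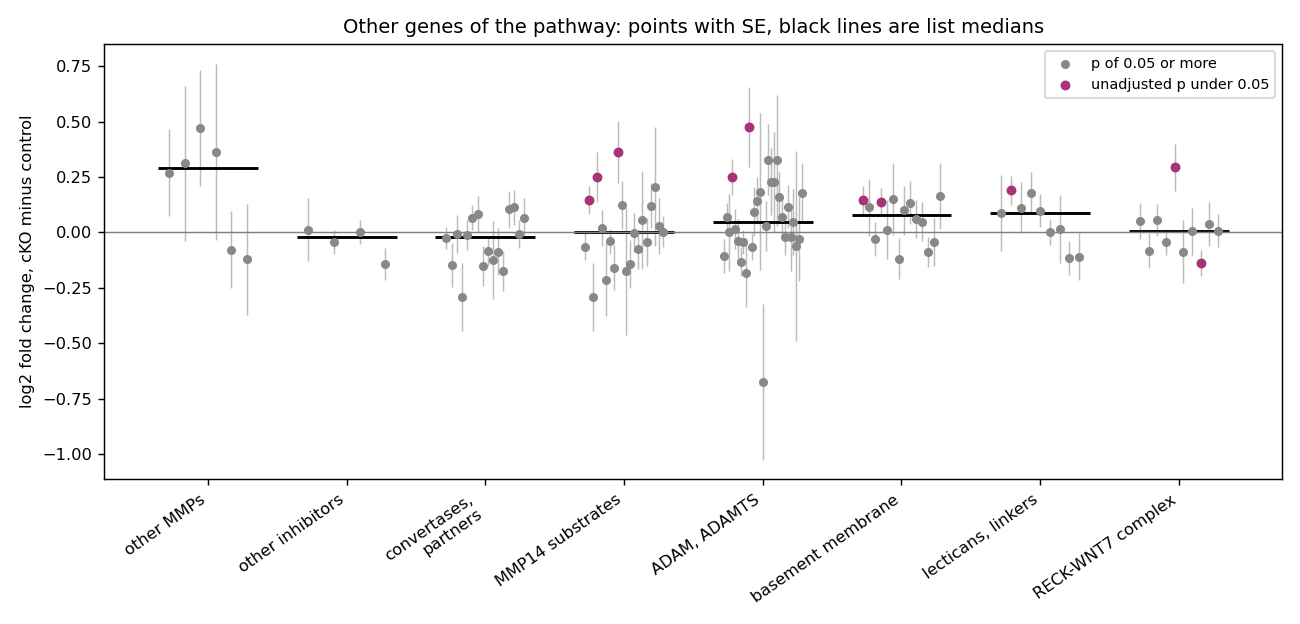
Log2 fold change (cKO minus control, vertical axis) of the tested genes in 8 pathway groups, with SE; purple points have an unadjusted edgeR p under 0.05 and black lines are group medians, and a gene in 2 groups is drawn in both. Medians run from -0.02 to 0.29 and no gene shown passed the adjusted test. The group labelled RECK-WNT7 complex holds genes of WNT7 signalling more broadly.

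Markers of brain cell types were read beside Mmp14. Of 8 astrocyte markers, 1 passed edgeR's adjusted test, Aqp4, the endfoot water channel, with a log2 fold change of 0.46 (SE 0.067, adjusted p 0.0104) over all 8 libraries. This call was lost in 5 of the 8 edgeR fits that leave out 1 library: adjusted p 0.159 without control replicate 2, 0.114 without control replicate 4, and 0.104, 0.0690 and 0.0621 without cKO replicates 2, 3 and 4, with log2 fold changes from 0.41 to 0.50 over the 8 fits. Gfap, the intermediate filament of astrocytes, had 0.33 (SE 0.11, edgeR adjusted p 0.889). The glutamate transporter genes Slc1a2 and Slc1a3 had -0.20 (SE 0.075) and -0.08 (SE 0.057). The summed astrocyte list ranged from 4446 to 5149 CPM in control and from 4089 to 4609 CPM in cKO libraries. Slc1a2 weighed most in that sum, with means of 2732 CPM in control and 2383 CPM in cKO libraries. The summed list of 8 endothelial markers ranged from 246 to 273 and from 237 to 256 CPM, that of 7 mural markers from 198 to 250 and from 219 to 228 CPM, and that of 7 fibroblast markers from 90.2 to 108 and from 94.7 to 113 CPM. Log2 fold changes of the fibroblast markers were positive for 5 of 7 (median 0.05), and none passed edgeR's adjusted test. An unadjusted edgeR p under 0.05 was reached by 2 of the 7, both higher, beside 2.87% of all genes tested. These were Igf2 at 0.67 (SE 0.23), with means of 2.32 CPM in control and 3.71 CPM in cKO libraries, and Col1a1 at 0.25 (SE 0.11). The 6 microglial markers summed to between 258 and 295 CPM in control and between 264 and 290 CPM in cKO libraries. No defining marker of these 5 lists was at or near 0, and their part in the difference of Mmp14 was not tested.

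The genes whose level followed Mmp14 most closely over the 8 libraries were taken from 11451 named genes with a mean of at least 5 CPM, by Pearson's r of log2 CPM. They were Fcer1g (r 0.984), a signalling chain of immune receptors in microglia, then Rhbdd2 (0.943), Tmed4 (0.937), Hif1an (0.932) and Slc26a11 (0.932). Such correlations include the difference between groups and shared library effects, and are a description over 8 libraries. The log2 fold change was 0.27 for Fcer1g (SE 0.13), 0.12 for Rhbdd2, 0.04 for Tmed4, 0.16 for Hif1an and 0.35 for Slc26a11 (SE 0.12), none past edgeR's test (adjusted p of at least 0.889). Among the list itself, r with Mmp14 ran from -0.62 for Reck to 0.71 for Mmp24. After each group was centred on its own mean, the highest r in the list was that of Mmp17 (0.895), then Mmp15 (0.724).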

How the data were processed

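RNA of mouse brain was sequenced in 8 libraries, grouped by their titles into 4 control and 4 cKO. The authors deposited whole-number read counts per Ensembl gene, 1 file per library, with no normalization. HISAT2 and GRCm39 are named in the submitters' processing notes; the sources used here do not name the counting program, annotation, strand setting or read length. The 5 closing entries that name no gene (lowest and highest shares of listed reads: 4.35% to 6.04% no feature, 5.14% to 10.1% ambiguous, 2.15% to 7.18% low quality, 3.31% to 10.4% unaligned, 4.10% to 4.39% several alignments) were left out. Symbols were matched by Ensembl identifier for 51880 of 57186 genes. GENCODE M21 and RefSeq describe GRCm38, so they gave names, chromosome, lengths, GC content, sequences and gene order, and no coordinates; a planned window of fixed width around Mmp14 was replaced by gene order for that reason.

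Genes were filtered with filterByExpr (16766 of 32202 with a read), scaled by TMM and tested by the quasi-likelihood test of edgeR 4.0.16 in R 4.3.3 (robust, group only, Benjamini-Hochberg over all genes tested, threshold 0.05), after a check on simulated data. No p is given for Mmp14, which stayed in the fit, in the adjustment over all genes tested and in the shares over all genes. Alternatives were DESeq2 1.42.0, its size factors in edgeR, library totals, 2 other filters, limma 3.58.1 (voom), GC-content offsets (loess, span 0.5), the replicate number as a block, and fits without 1 library or without both libraries numbered 1. Libraries differed from each other by at least 3.00 times the counting variance, so none was counted as a copy. All 10 genes were always named. Others were the 3 of lowest p per group, the 5 most like Mmp14 on each measure, and Akap11. Marker genes were named where a sentence on Mmp14 or on a marker list needed them. Members, lists and tests were chosen with earlier results of these data known.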

Additional observations from a re-analysis of the deposited data

Results flagged for a closer look

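In the cKO group, the Mmp2 level of replicate 1 (3.76 CPM) lay far from the other 3 libraries (1.61, 1.71 and 1.96 CPM), with a gap of 0.841 of the group's range where 0.829 is the limit for 4 libraries. The library held 52 Mmp2 reads. Of the 22 groups of 4 examined (10 genes and Akap11 in both conditions) this was the 1 so marked, and chance marks about 1 in 20.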

How the results depend on the processing

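The count of 0 among the 9 genes other than Mmp14 and the count of 0 among the pathway genes held in all 17 alternatives. As only 0 to 7 of all genes tested passed in these alternatives, counts in lists this short had little room to change. Mmp14 stayed between 0.47 and 0.55. The 8 ratios of Mmp14 to genes other than Mmp2 kept their direction without any 1 library (0.29 to 0.70 in log2), as did the ratio to Mmp2 (0.03 to 0.61). Over all genes tested, 4 passed with edgeR; 7 passed with no low-count filter, 2 with the replicate number as a block, 2 without both libraries numbered 1, and 0 to 3 without 1 library, with 0 without control replicate 2 or cKO replicate 2. Signs turned for Timp2, Timp3, Timp4, Mmp17 and Mmp2. Timp2 (0.0035) became -7.8e-05 with DESeq2, -1.5e-06 with no filter, -0.00071 with limma voom, -0.032 with GC-content offsets and -0.045 without both libraries numbered 1. Timp4 (-0.0026) became 0.0063 with library totals and 0.0075 with GC-content offsets, and Timp3 (-0.05) became 0.056 without both libraries numbered 1. Without 1 library, Timp2 ranged from -0.057 to 0.026, Timp3 from -0.097 to 0.010, Timp4 from -0.049 to 0.048, Mmp17 from -0.012 to 0.11 and Mmp2 from -0.19 to 0.45; the cause was not tested. Libraries with the same number did not deviate together (r from -0.06 to 0.09). The labels do not say whether the numbers pair samples, and these correlations cannot settle it. The block changed no call among the 9 genes other than Mmp14. Mmp2 had 15 to 53 reads per library, and the part of depth in its wide interval was not tested. Medians of the other pathway groups shifted without 1 library. They ran from -0.05 to -0.0011 for convertases and trafficking factors and from -0.07 to -0.0026 for other inhibitors. For ADAM and ADAMTS genes they ran from 0.02 to 0.08, for WNT7 signalling genes from -0.05 to 0.02 and for substrates from -0.04 to 0.01.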

Other observations

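Mmp14 lies on chromosome 14, as does Akap11, with 202 tested genes between them in RefSeq order (GRCm38.p6). Of the 5 nearest tested genes on each side of Mmp14, 0 passed edgeR's test, 0 reached an unadjusted p under 0.05, and the groups overlapped in all 10. Over all genes tested, 0.0239% passed, 4.78% reached an unadjusted p under 0.05 and 2.96% had groups that did not overlap. With only 10 genes, counts of 0 do not stand apart from these shares. The 10 neighbours were chosen after the reference was seen. The neighbours on either side, Mrpl52, a mitochondrial ribosomal protein gene, and Lrp10, a lipoprotein receptor family gene, had log2 fold changes of 0.17 (SE 0.12, edgeR adjusted p 0.889) and -0.03 (SE 0.088, adjusted p 0.964). The amino acid transporter gene Slc7a7 had the lowest p of the 10 genes, with -0.36 (SE 0.23, adjusted p 0.889).

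After each group was centred on its own mean, the genes that followed Mmp14 most closely over the 8 libraries were Adra1d (r 0.978), an adrenergic receptor gene, Otud1 (0.975), Nat14 (0.973), Dlgap4 (0.972), a postsynaptic scaffold gene, and Elfn1 (0.960). They are a different set of 5 from those found without centring, and r was 0.946 to 0.996 for these 5 without both libraries numbered 1. The 5 were picked by their r over these same libraries, so that range is no separate check.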
